A study of Saccharomyces cerevisiae with 6 samples.

Results

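The nucleotides described here are positions of 18S and 25S rRNA listed as carrying a methyl group on the ribose 2'-oxygen in mature yeast ribosomes. The 2 nucleotides on either side of each are described as well. Nearly all of the listed positions are assigned to box C/D small nucleolar RNAs (snoRNAs). The sites were chosen from a list of 55 positions, and a position was kept where its base matched the sequence of the 35S pre-rRNA. The match held for 54 positions, 17 in 18S and 37 in 25S, out of 6858 nucleotides of the transcript, and all 54 had a value in both strains. The listed 25S C2793 was left out because the sequence holds G there. The flanks comprised 190 nucleotides that are not themselves kept sites, or 204 with the sites that flank one another. The position left out, 25S G2793 in the sequence, is counted among the 190 as a flank of 25S G2791.

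The samples were 35S pre-rRNA of Saccharomyces cerevisiae, taken from cells by immunoprecipitation of TAP-tagged Mrd1, an RNA-binding protein of the early pre-ribosome. The 6 libraries form 3 groups of 2. A BY4741 strain with the allele mrd1-deltaRDB5-TAP and a pGAL-HA-MRD1 construct, here called the Mrd1 mutant, was treated with the solvent DMSO in 1 group and with the probing reagent 1M7 in another. A strain with GAL::3HA-ERB1 and intact MRD1-TAP, labelled as depleted of the 25S assembly factor Erb1, was treated with 1M7 in the third group. Cells were grown in glucose medium (YPD) or in galactose and raffinose medium (YPG/R), and the time of depletion is not given in the labels. The labels list no DMSO library of Erb1-depleted cells, and no strain without either alteration was compared, so the effects of the Mrd1 allele and of Erb1 loss cannot be told apart. The values are 1 score per nucleotide and strain with the libraries merged, and the depth behind them is unknown. There is therefore no spread between replicates, every comparison below is a description without a test, and intervals on shares (Wilson, 95%) take nucleotides as independent and leave out the spread between libraries.

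A box C/D snoRNA pairs with rRNA through a short guide stretch, and its methyltransferase Nop1 (fibrillarin) methylates the nucleotide that pairs with the fifth guide base before box D. The methylated positions of mature ribosomes lie mostly in conserved functional centres such as the decoding site, the A-loop and the peptidyl transferase centre. The reagent 1M7 reacts with the 2'-hydroxyl of flexible nucleotides, and a nucleotide methylated on its 2'-oxygen has no such hydroxyl to react. Methylation was not measured in these samples, and each score averages over all molecules, whether methylated or not. Of the 54 sites, 25S G2922 is methylated by the protein Spb1 and not by a snoRNA, and the guide given for 25S G2395, snR190, is a prediction.

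The stretches below hold a selection of the sites described here. They include the sites with the lowest and the highest raw scores in each strain. Some of the sites where the strains differed and some neighbouring sites of 1 guide are also shown. The stretches are read from the deposited sequence of the 35S transcript, 5′ to 3′. Every listed site is in capitals and all other bases are in lower case. Position 1 is the first nucleotide of the named rRNA.
18S A541, positions 529 to 553 (35S 1229 to 1253): accuuaacgaggAacaauuggaggg
18S A619, positions 607 to 631 (35S 1307 to 1331): guuguugcaguuAaaaagcucguag
18S A796, positions 784 to 808 (35S 1484 to 1508): cucgaauauauuAgcauggaauaau
18S U1269 and 18S G1271, positions 1259 to 1281 (35S 1959 to 1981): uuguggguggUgGugcauggccg
25S G805, 25S A807 and 25S A817, positions 795 to 819 (35S 4046 to 4070): guugggacccGaAagauggugaAcu
25S C1437, 25S A1449 and 25S G1450, positions 1429 to 1458 (35S 4680 to 4709): gugcagauCuuggugguaguAGcaaauauu
25S G2395, positions 2383 to 2407 (35S 5634 to 5658): cagaaucagcggGgaaagaagaccc
25S U2724 and 25S U2729, positions 2712 to 2736 (35S 5963 to 5987): uugauuuugauuUucagUgugaaua
25S U2921 and 25S G2922, positions 2911 to 2932 (35S 6162 to 6183): agcguuggauUGuucacccacu

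The sites held 20 adenosines, 10 cytidines, 14 guanosines and 10 uridines. Adenosine made up 37.0% of the sites and 26.6% of 18S and 25S. The nucleotide 3 nt downstream of a site was adenosine at 40.7% of sites, and the one 3 nt upstream was cytidine at 33.3%, against 19.4% cytidine in 18S and 25S. These shares come from the sequence alone, and their part in the reactivities below was not tested.

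The methylation sites were low in 1M7 reactivity in both strains, and the low values were those of the site itself more than of its surroundings. The raw reactivity score, which is centred on 0 and can be negative, had a median of -0.0524 at the sites in the Mrd1 mutant, with a range of -0.305 to 0.109. In Erb1-depleted cells the median was -0.0438 and the range -0.373 to 0.132. The 190 flanking nucleotides had medians of 0.0175 and 0.0337 in the same order, and the other nucleotides of 18S and 25S had medians of 0.00131 and 0.00262. The raw score was below 0 at 44 sites in the Mrd1 mutant, at 35 in Erb1-depleted cells and at 32 in both. Among flanks it was below 0 at 86 and 74 of 190.

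On the normalized scale, where the authors set negative scores to 0, the mean over the sites was 0.0388 in the Mrd1 mutant and 0.0670 in Erb1-depleted cells. The flanks had means of 0.258 and 0.283, and the other nucleotides of 18S and 25S had means of 0.232 and 0.246. The mean of the sites was thus below those of both other sets in each strain.

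A nucleotide was taken as marked by 1M7 where the BUM_HMM model gave it a posterior probability of at least 0.95. In the Mrd1 mutant 1 of 54 sites was marked (1.85%, interval 0.328% to 9.77%), against 18.5% of all measured nucleotides of the transcript. In Erb1-depleted cells 4 sites were marked (7.41%, interval 2.92% to 17.6%), against 21.1% of the transcript. Nucleotides with the bases and rRNAs of the sites would give 12.2 and 13.5 marked sites. Of the flanks, 51 of 190 were marked in the Mrd1 mutant (26.8%, interval 21.0% to 33.6%) and 53 in Erb1-depleted cells (27.9%, interval 22.0% to 34.7%), beside 20.6% and 23.0% of the other nucleotides of 18S and 25S.

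**Figure D1:**
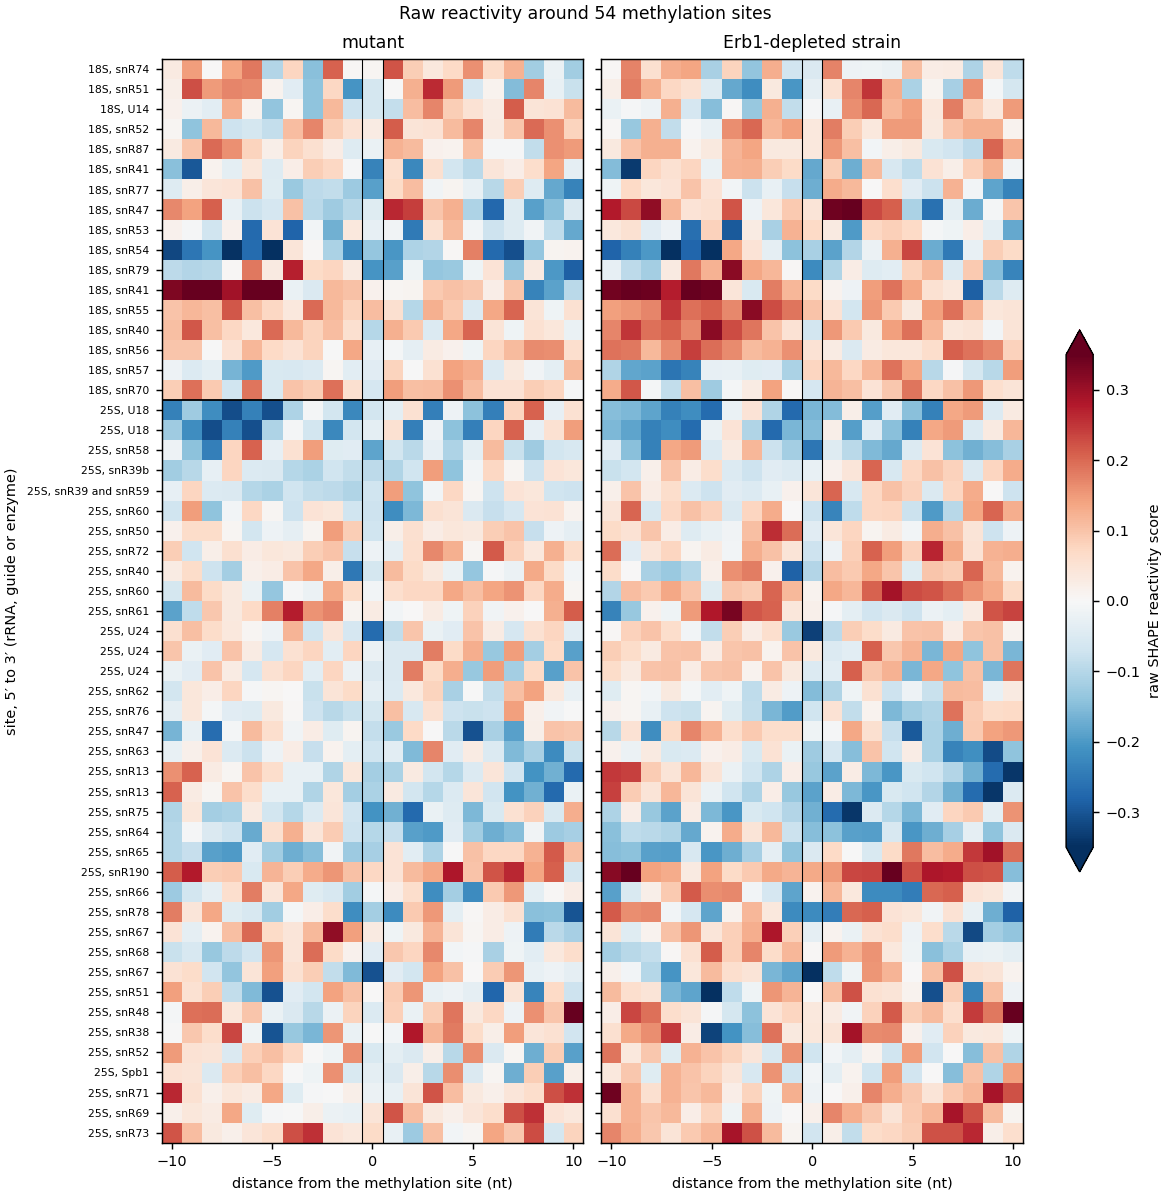
Heat map of the raw reactivity score from 10 nt upstream to 10 nt downstream of each of the 54 sites (rows, 18S above the line and 25S below, named by guide) in the Mrd1 mutant and Erb1-depleted cells, 1 value per square, with the darkest colours also covering values beyond the ends of the scale. The site columns between the thin lines hold values below 0 at 44 rows in the Mrd1 mutant and 35 in Erb1-depleted cells.

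The nearest comparison for a site is its own surroundings. The raw score of the site was below the mean of its 4 flanking nucleotides at 46 of 54 sites in the Mrd1 mutant (85.2%, interval 73.4% to 92.3%), where 50.4% of all nucleotides of 18S and 25S lay below theirs. In Erb1-depleted cells this held for 45 sites (83.3%, interval 71.3% to 91.0%), where 49.4% of nucleotides did so. It held in both strains for 40 sites (74.1%, interval 61.1% to 83.9%), against 39.9% of nucleotides. The median of the site's score minus its flank mean was -0.0604 in the Mrd1 mutant and -0.0765 in Erb1-depleted cells on the raw scale, and -0.180 and -0.157 on the normalized scale. With flanks of 1 nt the normalized medians were -0.0976 and -0.0719.

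Many sites lay close to a marked nucleotide. In the Mrd1 mutant 37 sites (68.5%) had at least 1 marked nucleotide within 2 nt, against 46.4% of all nucleotides of 18S and 25S, and 33 of these 37 sites (89.2%) were below their flanks. A marked neighbour raises the flank mean, and among all nucleotides of 18S and 25S with one, 54.4% were below their flanks. In Erb1-depleted cells 35 sites (64.8%) had one, against 46.7%, and 32 of the 35 (91.4%) were below their flanks, beside 51.4% of all such nucleotides. Of the sites with no marked nucleotide within 2 nt, 13 of 17 and 13 of 19 were below their flanks, beside 46.8% and 47.6% of such nucleotides. The site was the lowest of its 5 nucleotides at 18 sites in the Mrd1 mutant and 21 in Erb1-depleted cells. For 18S and 25S as a whole the shares of such nucleotides were 17.8% and 16.5%. At the remaining sites another nucleotide nearby was lower still.

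**Figure D2:**
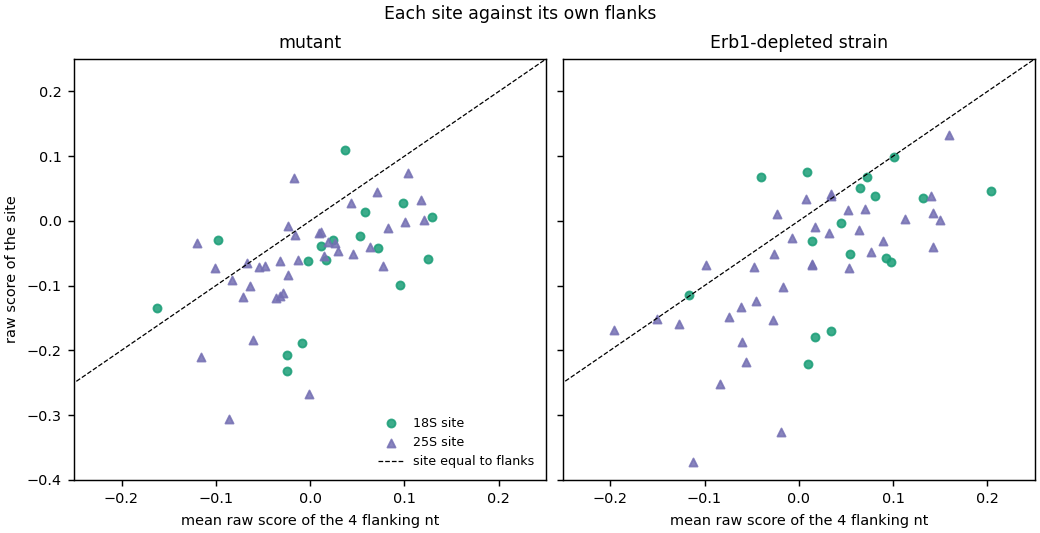
Raw score of each site (vertical axis) against the mean raw score of its 4 flanking nucleotides (horizontal axis), 18S sites as circles and 25S sites as triangles, 1 panel per strain, with the dashed line where both are equal. In the Mrd1 mutant 46 of 54 points lie below the line and in Erb1-depleted cells 45 do.

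The dip was centred on the site. Averaged over the 54 sites, the raw score minus the mean of nucleotides of the same base and rRNA was -0.0673 at the site in the Mrd1 mutant and -0.0654 in Erb1-depleted cells. The nucleotide just upstream of the site was next lowest, at -0.0217 and -0.00857. The other positions within 10 nt lay between -0.00396 and 0.0394 in the Mrd1 mutant and between 0.0136 and 0.0490 in Erb1-depleted cells. The number of marked nucleotides followed the same course. It was 1 and 4 at the site and 7 and 10 just upstream, and it was 14 and 13 just downstream. At the other distances it lay between 12 and 20 in the Mrd1 mutant and between 13 and 24 in Erb1-depleted cells. Reverse transcriptase stops beside an adduct, so a shift of the scores by 1 nt would move the dip. Read at the nucleotide upstream of each site, 32 and 30 of 54 positions were below their flanks, fewer than at the site but more than the 50.4% and 49.4% of 18S and 25S. Read at the nucleotide downstream, 27 and 26 of 54 were, close to those shares. In both shifted readings the site itself is among the flanks, and its low score lowers the flank mean. The shifted counts are thus not independent of the dip at the site.

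**Figure D3:**
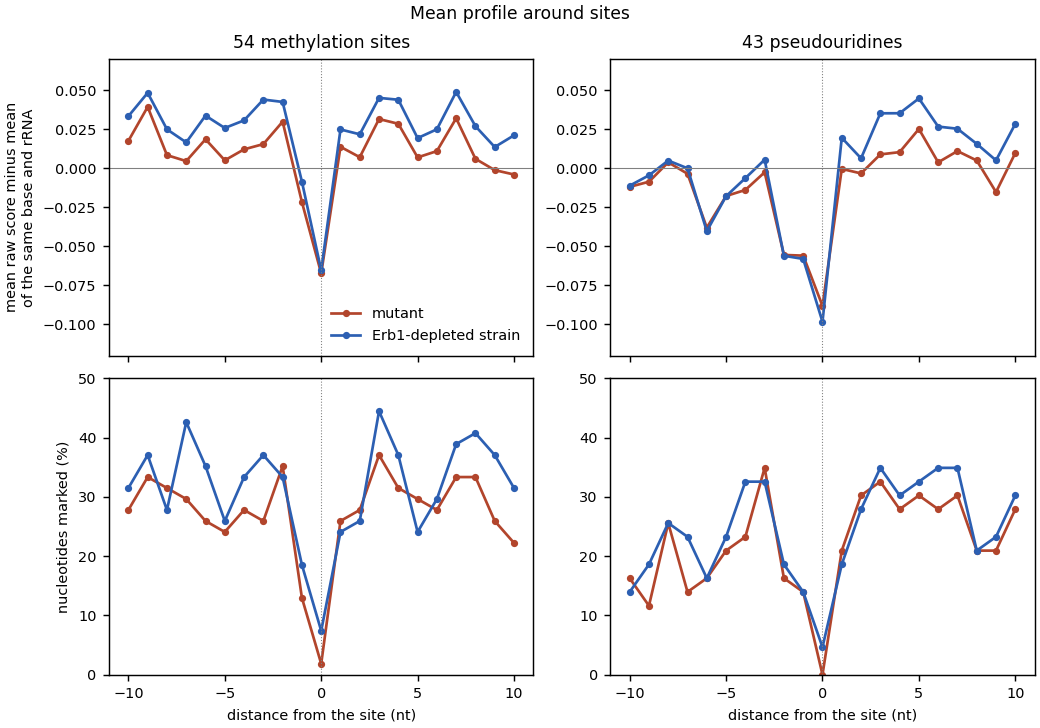
Mean raw score minus the mean of the same base and rRNA (top) and percent of nucleotides marked by 1M7 (bottom) by distance from 54 methylation sites (left) and 43 pseudouridines (right), mutant in red and Erb1-depleted strain in blue, with no error since there is 1 value per nucleotide and strain. The lowest mean at the methylation sites is at distance 0, at -0.0673 in the Mrd1 mutant and -0.0654 in Erb1-depleted cells.

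1M7 reactivity differs between bases, and adenosines are the most reactive in these data, so sites were also ranked among the other nucleotides of their base and rRNA. A percentile is the percent of those nucleotides with a lower raw score. The median percentile of the sites was 23.0 in the Mrd1 mutant and 35.2 in Erb1-depleted cells. In the Mrd1 mutant 43 of 54 sites were under the 50th percentile, in Erb1-depleted cells 39 were, and 37 were in both. In both strains 9 sites were above it.

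Adenosine sites differed most from other nucleotides of their base. Their raw scores had medians of -0.0521 and -0.0247, whereas other adenosines had medians of 0.0602 and 0.0713. None of the 20 was marked in the Mrd1 mutant and 2 were in Erb1-depleted cells, beside 38.6% and 42.0% of other adenosines. The median percentile of adenosine sites was 12.4 in the Mrd1 mutant and 23.4 in Erb1-depleted cells.

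Uridine sites had median percentiles of 34.3 and 33.8, and 0 of 10 were marked in each strain, beside 20.8% and 21.7% of other uridines. Guanosine sites had 32.9 and 47.9, so in Erb1-depleted cells they lay near the middle of other guanosines. Other guanosines had median raw scores of -0.00749 and 0.0121. Of the guanosine sites 1 and 2 of 14 were marked, beside 18.5% and 21.1% of all measured nucleotides of the transcript. These counts were not set beside the share of other guanosines, so they do not show whether guanosine sites were marked less often. Cytidine sites had 42.6 and 46.8, with 0 of 10 marked in each strain. Other cytidines were seldom marked either, at 7.60% and 6.40%, and their median raw scores of -0.0569 and -0.0973 were close to those of the cytidine sites, -0.0612 and -0.109. With 10 cytidine sites a count of 0 leaves a Wilson upper limit of 27.8%, so a lower level at cytidine sites was not detectable here from marked nucleotides. The same limit holds for the 10 uridine sites and lies above the shares of other uridines. Their count of marked nucleotides alone thus does not resolve a lower level either.

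**Figure D4:**
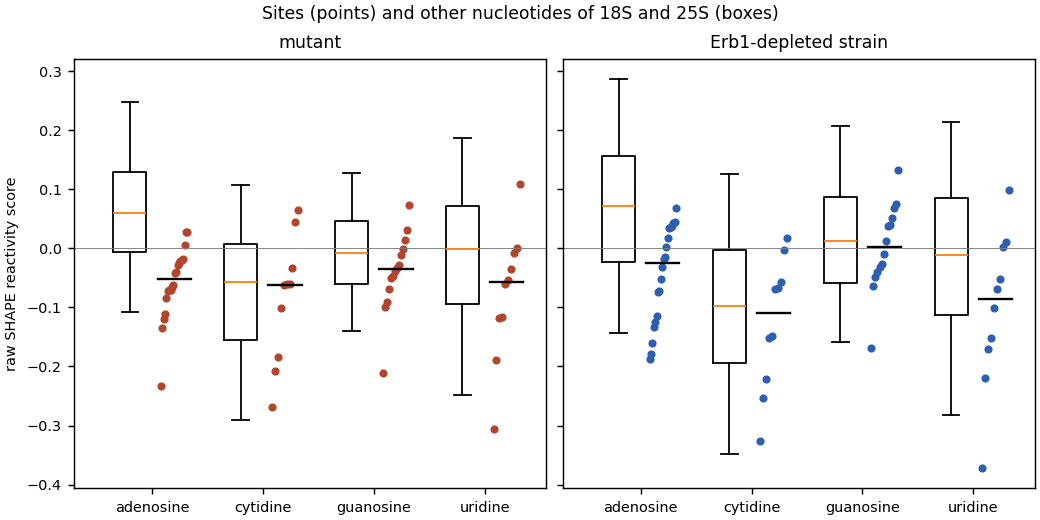
Raw score of the sites (points, black line at the median) beside that of the other nucleotides of 18S and 25S (boxes, median and quartiles, whiskers from the 5th to the 95th percentile) for each base, 1 panel per strain. Adenosine sites have medians of -0.0521 and -0.0247 beside 0.0602 and 0.0713 for other adenosines, and the medians of cytidine sites lie near those of other cytidines.

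By place, the 9 sites of the 18S 5′ part (up to 18S A796) were below their flanks at 8 positions in each strain, and the 8 sites of the 3′ part at 6 positions in each strain. Their median percentiles were 15.6 and 34.7 in the 5′ part and 31.6 and 57.5 in the 3′ part. The sites of the 3′ part in Erb1-depleted cells were thus no lower than other nucleotides of their bases at the median, although most were lower than their own neighbours. Of the 26 sites of 25S before the peptidyl transferase region, 22 and 21 were below their flanks, with median percentiles of 21.3 and 30.6.

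The peptidyl transferase region, where peptide bonds are made, holds 11 sites from 25S G2619 to 25S C2959. None of the 11 was marked in either strain, beside 18.5% and 21.1% of all measured nucleotides of the transcript. So few sites do not resolve a lower level from marked nucleotides alone. In each strain 10 of the 11 were below their flanks. Ranked among other nucleotides of their base and rRNA, the middle site of the 11 was 25S G2922 in both strains. Its percentile was 39.4 in the Mrd1 mutant and 43.2 in Erb1-depleted cells. Several of the 11 sites stood beside strongly reactive neighbours. The site 25S G2815, a target of snR38, had a normalized score of 0 in the Mrd1 mutant and 0.170 in Erb1-depleted cells. The nucleotides 2 nt away, A2813 and A2817, had normalized scores of 0.806 and 1.46 in the Mrd1 mutant and 0.832 and 1.27 in Erb1-depleted cells. The adjacent G2814 and G2816 were close to the site, both at 0 in the Mrd1 mutant and at 0.149 and 0.196 in Erb1-depleted cells, so the contrast was with the adenosines. The site 25S U2729, guided by snR51, had normalized scores of 0.00470 and 0.00902, while the mean of its 4 flanks was 0.630 and 0.653. Neither site was low for its base. The percentiles were 57.5 and 61.7 for 25S G2815 and 52.0 and 56.7 for 25S U2729.

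The A-loop, which holds the end of the tRNA in the A site, carries methyl groups on adjacent nucleotides in mature ribosomes. The raw score of 25S U2921, the target of snR52, was -0.0540 in the Mrd1 mutant and -0.0688 in Erb1-depleted cells. That of 25S G2922, the target of Spb1, was -0.0331 and -0.00909. The nucleotide just upstream, U2920, had normalized scores of 0.837 and 0.680 and was marked in both strains. By contrast, both sites had normalized scores of 0 in both strains. A2919, which is not a listed site, and the pseudouridine position U2923 also had normalized scores of 0 in both strains. The raw score of U2923, -0.0514 and -0.0330, was below that of G2922. The contrast in the A-loop thus rested on U2920.

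The site 25S G2395 was the only one marked in both strains and had the highest percentile averaged over the strains. Its raw score was 0.0738 in the Mrd1 mutant and 0.132 in Erb1-depleted cells, and its percentile was 87.8 and 86.5. All 4 of its flanks were marked in both strains, and its normalized score of 0.384 and 0.575 was below their mean of 0.542 and 0.694. This is the site whose guide is a prediction, and whether it is methylated was not measured here.

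The other 3 marked sites were marked in Erb1-depleted cells only. The site 18S A796, a target of snR53, had a raw score of -0.0288 in the Mrd1 mutant and 0.0685 in Erb1-depleted cells. It was among the 3 sites above their flanks in both strains, with 18S A974 and 25S U2417. The site 18S G1126, 1 of the targets of snR41, had raw scores of 0.0143 and 0.0676. The stretch from 10 to 5 nt upstream of it is among the most reactive in the heat map. The site 25S A807, guided by snR39 and snR59, had raw scores of -0.0702 and 0.0423 and a posterior of 0.979 in Erb1-depleted cells.

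The posterior and the reactivity score did not order the sites alike. The snR55 site 18S U1269 had the highest raw score of any site in the Mrd1 mutant, 0.109, and 0.0995 in Erb1-depleted cells, but its posterior was 0.192 and 0.000515. Its neighbour 18S G1271, guided by snR40, had raw scores of -0.0988 and -0.0639 in the same short stretch. The remaining sites with high mean percentiles were 25S C2948, guided by snR69, with raw scores of 0.0449 and 0.0177, and 25S C2959, guided by snR73. The latter had 0.0658 in the Mrd1 mutant and -0.0666 in Erb1-depleted cells, on opposite sides of 0.

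The sites with the lowest mean percentiles were 18S A541, 25S U2724, 25S G2288, 25S A2281 and 18S A974. The snR41 site 18S A541 had raw scores of -0.233 and -0.179, lower than all but 0.421% and 2.74% of other 18S adenosines. The snR67 site 25S U2724 had the lowest raw scores of all sites, -0.305 and -0.373, and all 4 of its flanks had normalized scores of 0 in both strains. The snR75 site 25S G2288 had raw scores of -0.211 and -0.169, and the snR54 site 18S A974 had -0.135 and -0.114. All 4 flanks of 18S A974 had negative raw scores in both strains, so this site was low within a low stretch. The site furthest below its flanks was 25S C1437, at -0.268 and -0.327, which is -0.267 and -0.308 from the mean of its 4 neighbours.

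Guides that serve several sites allow sites to be set side by side. Sites of 1 guide were not alike in level. U24, the guide of 3 sites in 25S, serves the low 25S C1437 together with 25S A1449, at -0.0213 and 0.0345, and 25S G1450, at -0.0508 and -0.0478. snR41 serves both the lowest adenosine of 18S among the sites, 18S A541, and the marked 18S G1126. snR67 serves 25S U2724 and also 25S G2619, whose raw scores were 0.0317 and -0.0308 beside a neighbour, U2617, with the highest normalized score of any flank in the Mrd1 mutant, 1.62.

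The adjacent targets of snR13 were both low. The site 25S A2280 had raw scores of -0.120 and -0.133, and 25S A2281 had -0.111 and -0.187. The adjacent targets of U18 lay in a stretch that was low as a whole. The site 25S A649 had raw scores of -0.0655 and -0.160, and 25S C650 had -0.0338 and -0.152, while the means of their flanks were -0.0673 and -0.127 for the former and -0.120 and -0.151 for the latter.

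Several guides act on both rRNAs. snR40 serves 18S G1271 and 25S U898, and the raw scores of the latter were -0.0604 and -0.102. snR47 serves 18S A619, at -0.0423 and 0.0455, and 25S A2220, at -0.0835 and -0.0141. snR51 serves 18S A100, at -0.0619 and -0.0312, and 25S U2729, at 0.000901 and 0.00207. snR52 serves 18S A420, at 0.0282 and 0.0361, and 25S U2921. snR60 has its pair of targets in 25S alone, 25S A817 at -0.0728 and -0.0716 and 25S G908 at -0.0105 and 0.0127. U14, which is also needed for 18S rRNA processing, guides 18S C414, whose raw scores were -0.0605 and -0.00306.

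Low reactivity was also seen at modified nucleotides without a 2'-O-methyl group. Pseudouridines keep their 2'-hydroxyl and are made mostly under the guidance of the other class of snoRNAs, box H/ACA. At 43 pseudouridines of 18S and 25S the median raw score was -0.0957 in the Mrd1 mutant and -0.133 in Erb1-depleted cells. None was marked in the Mrd1 mutant (upper limit 8.20%) and 2 were in Erb1-depleted cells (4.65%), beside 21.5% and 22.4% of other uridines. They were below their own flanks at 34 (79.1%) and 36 (83.7%) of 43 positions, whereas other uridines were at 42.7% and 46.6%. The 10 uridine sites of 2'-O-methylation had median raw scores of -0.0572 and -0.0852, which were nearer to 0 than those of the pseudouridines. Around pseudouridines the dip was also less confined to 1 nucleotide, with mean differences down to -0.0560 and -0.0580 at other distances within 10 nt. How far a shared property, such as the local structure of conserved rRNA, enters both low levels was not tested.

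Between the strains the raw scores of the sites rose and fell together in broad terms. How this compares with other nucleotides is not given here. The raw scores of the Mrd1 mutant and Erb1-depleted cells had a Pearson r of 0.817 over the 54 sites, given as a description, since the scores share the transcript, the base composition and possibly the control libraries. A difference between the strains was called by the authors from smoothed raw scores and kept where the nucleotide was marked in at least 1 strain. Such a difference was called at 1 site (1.85%), against 5.96% of the nucleotides compared. It was 25S A807, higher in Erb1-depleted cells by a standardized difference, mutant minus Erb1-depleted, of -1.49. The low number of marked sites limits this count, since an unmarked site cannot pass the filter.

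Before that filter 5 sites were called (9.26%), against 25.2% of nucleotides. Of these, 4 were higher in Erb1-depleted cells. They were 18S A619 with a standardized difference of -1.79, 25S A807, 25S A2220 with -1.28 and 25S G805, the neighbour of A807, with -1.15. The raw scores of 25S G805, a target of snR39b, were -0.0916 in the Mrd1 mutant and -0.0266 in Erb1-depleted cells. The remaining call was 25S U1888, guided by snR62, which was higher in the Mrd1 mutant with a standardized difference of 1.33. Its raw scores were -0.0347 and -0.152. Both snR47 targets, 18S A619 and 25S A2220, were among the sites called.

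**Figure D5:**
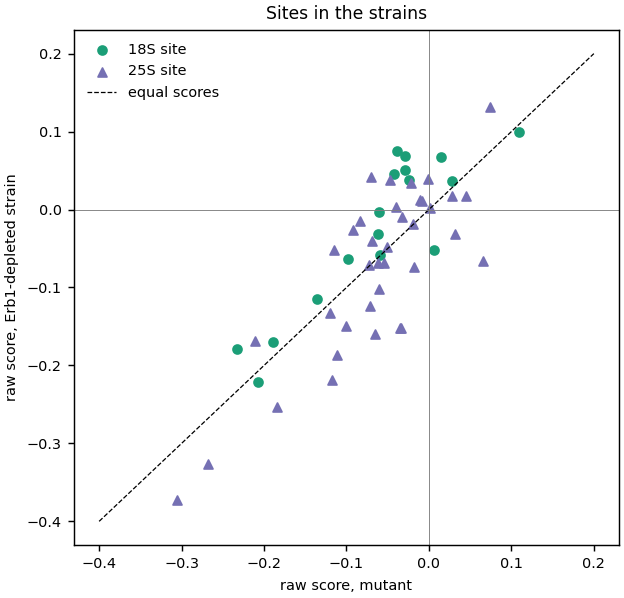
Raw score of the 54 sites in Erb1-depleted cells (vertical axis) against the mutant (horizontal axis), 18S sites as circles and 25S sites as triangles, with the dashed line where the scores are equal. The points follow the line with a Pearson r of 0.817. Several sites of 18S and of 25S with scores below 0 in the Mrd1 mutant lie above 0 in Erb1-depleted cells. The sites 18S A28, 25S G2619 and 25S C2959 lie on opposite sides of 0 in the other direction.

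Flanks were called as well as sites, and they pass the filter more easily because more of them were marked. Of 190 flank nucleotides 16 were called and marked (8.42%), 15 of them higher in Erb1-depleted cells and 1 higher in the Mrd1 mutant, and they lay beside 8 sites. Over the whole transcript 5.96% of nucleotides were called and marked, and 337 of these 390 were higher in Erb1-depleted cells, so the direction at the flanks was also that of most calls elsewhere. The most reactive of the called flanks were beside 18S A619. Its downstream neighbours A620 and A621 had normalized scores of 1.38 and 1.26 in the Mrd1 mutant and 1.48 and 1.51 in Erb1-depleted cells, and its upstream neighbour U618 had 0 and 0.396. The site itself had 0 and 0.198, so it was below its downstream neighbours in both strains while the whole stretch was higher in Erb1-depleted cells.

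The same direction was called at 1 or more flanks of 18S U1269, 25S A807, 25S G867, 25S G908, 25S A2220 and 25S G2395. Beside 25S G867, guided by snR50, U865 had normalized scores of 0.758 and 1.12 and A866 had 0.452 and 0.854, and the site had 0 in both strains. Beside 25S G908, the marked A906 had 0.697 and 0.887, and the site had 0 and 0.0555. Beside 25S G2395, A2397 had 0.577 and 1.02.

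The flank that was higher in the Mrd1 mutant was U29, beside 18S A28, which is guided by snR74 and lies in the 5′ end of 18S. U29 had normalized scores of 1.14 in the Mrd1 mutant and 0.754 in Erb1-depleted cells, and A26, also beside the site, had 1.08 and 0.549. The site A28 had 0.0320 and 0. The adjacent U27 was as low as the site, with normalized scores of 0.0258 and 0, and its raw scores of 0.00495 and -0.0662 were below those of A28, 0.00614 and -0.0517. A28 was thus not the lowest nucleotide of its stretch.

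Over all 54 sites the median standardized difference was -0.286, with 35 sites (64.8%) higher in Erb1-depleted cells, beside a median of -0.0509 and 52.6% over 18S and 25S. Without smoothing this lean was smaller, in the same direction. From unsmoothed raw scores the median was -0.0725 with 32 of 54 sites higher in Erb1-depleted cells, beside -0.0353 and 51.7% over 18S and 25S. The direction depends on what the site is set against. The difference between strains of the site's raw score minus its flank mean had a median of 0.0207. The median raw scores of the flanks, given above, were also higher in Erb1-depleted cells.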

How the data were processed

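Per the labels' protocols, cDNA was primed with random hexamers. Per the submitters' processing notes, Novoalign was used for alignment. The authors deposited scores, with 1 column per strain: raw and normalized reactivity (2% to 8% normalization, negatives at 0), a BUM_HMM posterior and a deltaSHAPE comparison, with -999 for insufficient coverage. The prefix D5 was read as the deltaRDB5 mutant. The sources used here do not say how the authors combined libraries and controls. The deposited annotation gave the length of each rRNA. Nucleotide numbers in the transcript were 700 plus the position for 18S and 3251 plus the position for 25S. For 25S this includes a shift of 1 nt from the annotation, in which 18S and ITS1 share 1 nt.

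From these scores, Python 3.11.15 with pandas 2.3.3 and numpy 2.4.6 computed each site's difference from its flanks and its percentile among other nucleotides of its base and rRNA, sites left out. The measures were tested on simulated data. The members and lists were chosen with earlier results of these data known. Guides and pseudouridines come from textbook knowledge, and the pseudouridines were added after the data were seen.

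Sites are named where they were marked, where a difference was called at them or within 2 nt, where they were among the 5 lowest or 5 highest mean percentiles, or where they share a guide with, or lie within 2 nt of, another site. Outside this rule, 18S C414, 18S G1572, 25S C2197, 25S U2417, 25S G2791 and 25S G2815 were named after their values were seen. Alternatives varied flank width and membership, the register by 1 nt, the site list, the posterior threshold (0.9 and 0.99), scale, smoothing and filter. Reads and stops per library were not analysed here.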

Additional observations from a re-analysis of the deposited data

Results flagged for a closer look

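At 8 sites the raw score of the site minus the mean of its flanks had opposite signs in the strains and differed by at least 1 SD of that difference over 18S and 25S. With 1 value per strain these differences were not tested, and some are changes of sign close to 0. The value was 0.0723 in the Mrd1 mutant and -0.00181 in Erb1-depleted cells at 18S U1269, 0.0858 and -0.000966 at 25S C650, and 0.0279 and -0.0238 at 25S A817. The widest gap was at 25S C2959, with 0.0833 in the Mrd1 mutant and -0.0805 in Erb1-depleted cells. The opposite order was seen at 18S G1572, guided by snR57, with -0.0497 and 0.0671, and at 25S G2288 with -0.0946 and 0.0270. It was also seen at 25S G2791, guided by snR48, with -0.0770 and 0.00322, and at 25S C2197, guided by snR76, with -0.0298 and 0.0295.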

How the results depend on the processing

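Of 64 recomputed values, 42 kept their direction and stayed within the 95% interval of the median over sites, or within 1.5 times for counts and shares, while 21 moved further and 1 reversed. The cause of these moves was not tested, except where the setting itself sets the size. The median site minus flank on the normalized scale was -0.180 in the Mrd1 mutant and -0.157 in Erb1-depleted cells. With flanks of 1 nt it was -0.0976 and -0.0719, and with flanks of 5 nt it was -0.214 in the Mrd1 mutant. Read 1 nt upstream it was -0.0937 and -0.0537, and read 1 nt downstream -0.0550 and -0.0266. In these shifted readings the site itself counts among the flanks. For 18S sites only it was -0.228 and -0.261. With raw scores times the normalization factor, so with negative values kept, it was -0.315 and -0.333. Marked sites numbered 7 and 10 when read 1 nt upstream and 14 and 13 when read 1 nt downstream, and 0 in the Mrd1 mutant without 25S G2922 and 25S G2395. Sites below their flanks numbered 27 and 26 when read 1 nt downstream. Called and marked strain differences at sites numbered 2 with each strain's own normalization factor, 2 at equal SD, both adding 18S A796, and 5 without the filter. The median strain difference was -0.286. It was -0.0725 without smoothing, smaller though within that wide interval, and 0.276 in SD units when the site was first set against its flanks. No paired analysis was possible because the columns carry no replicates. The recomputed calling rule differed from the deposited calls at 5 nucleotides, 0 of them sites. The merged libraries, the unknown depth and the lack of an unaltered strain limit every value.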
